A study of Mus musculus with 2 samples.

Results

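The immediate early genes Fos, Fosb, Jun, Junb, Egr1, Ier2, Ier3 and Atf3, together with the EGR corepressor genes Nab1 and Nab2, were followed in mouse foetal germ cells, with each member taken as the row of the gene count table whose Ensembl identifier belongs to that symbol. All 10 members were found among 42422 genes, and 9 of them passed the filter on low counts that left 15252 genes for testing. Atf3 did not pass and is described by its counts only.

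Immediate early genes are transcribed within minutes of a signal without new protein synthesis, and many are switched on when the kinases MEK1/2 and ERK1/2 activate transcription factors bound beside their promoters. Their proteins form AP-1 (FOS and JUN family dimers) or bind GC-rich sites (EGR family). NAB1 and NAB2 bind EGR proteins and dampen them, and Nab2 is itself an EGR target, so the pair is commonly read as a feedback arm of the same response. In the foetal testis, germ cells enter mitotic arrest and male differentiation, whereas XX germ cells enter meiosis.

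The libraries came from embryos of Oct4-eGFP males on a 129svJT2 background crossed to Swiss females, with a genotype labelled WT apart from the eGFP transgene used for sorting, collected at E12.5, with the gonad and mesonephros explanted together. XX and XY germ cells were taken at 0 h without culture, or after 24 h and 72 h in medium that held foetal calf serum and the vehicle DMSO. XY gonads were also cultured for 24 h or 72 h with 500 nM FGFRi (BGJ398/Infigratinib, an inhibitor of FGFR1, FGFR2 and FGFR3) or 500 nM MEKi (PD0325901/Mirdametinib, an inhibitor of MEK1/2). The inhibitors reached the whole explant, so the germ cells and their supporting cells were exposed together. Each library pooled the GFP-positive germ cells of several gonads, and cells of every group were enzymatically dissociated and sorted before RNA extraction; what this handling did to immediate early genes was not measured. There were 10 groups of 4 libraries.

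Library totals ranged from 1178953 to 5199153 counts, so that 3 counts corresponded to between 0.508 and 2.67 CPM (the count scaled to a common TMM-normalised library size). Positions are those of the GENCODE M39 gene models on GRCm39. Values are CPM unless a log2 fold change is named, and since reads were counted from the 3' end they were not divided by transcript length. The summed level of 6 germ cell markers lay between 2089 and 5640 CPM in every library, while 18 gonadal somatic cell markers summed to 31.7 to 182.6 CPM. The 0 h groups, the 24 h DMSO groups and the 24 h MEKi group were sequenced in pool 1 and the 24 h FGFRi and all 72 h groups in pool 2, so for 72 h against 24 h, for 24 h FGFRi against DMSO and for 24 h MEKi against FGFRi the pool and the group cannot be told apart. The XX 24 h DMSO libraries held 88 counts of 4 Y-linked genes, XX 0 h libraries 21 and XX 72 h DMSO libraries 29. As 16 libraries of pool 1 carry the same sample index as a library of pool 2, an alternative subtracted 3.25% of the partner's count, the carry-over that the Y-linked counts of XX 24 h DMSO above those of XX 0 h correspond to; nothing was subtracted in pool 2.

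A change was called where limma's treat test, which asks whether the fold change exceeds 1.5, gave an adjusted p under 0.05. Results that passed only limma's test for any change are not counted as calls. That adjusted p is given for some of them, so a value printed without it may also have passed that test.

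Promoter sequences are given for 4 members. The 300 bases before the canonical transcript start are given 5′ to 3′ for Ier2 and Nab2, the members with the largest inhibitor calls, for Fosb, which carried 2 matches, and for Nab1, which like Fos, Jun, Junb, Ier3 and Atf3 carried none. Capitals mark matches, and the build is GRCm39. The windows are Ier2 chr8:85389484-85389783 on the minus strand, Nab2 chr10:127504459-127504758 on the minus strand, Fosb chr7:19043977-19044276 on the minus strand and Nab1 chr1:52539839-52540138 on the minus strand.
Ier2: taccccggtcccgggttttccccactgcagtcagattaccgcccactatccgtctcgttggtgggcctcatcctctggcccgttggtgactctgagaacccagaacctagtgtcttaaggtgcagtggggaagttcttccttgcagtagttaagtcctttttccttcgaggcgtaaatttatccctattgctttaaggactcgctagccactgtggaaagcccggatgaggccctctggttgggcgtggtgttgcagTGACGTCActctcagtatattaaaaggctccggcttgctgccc
Nab2: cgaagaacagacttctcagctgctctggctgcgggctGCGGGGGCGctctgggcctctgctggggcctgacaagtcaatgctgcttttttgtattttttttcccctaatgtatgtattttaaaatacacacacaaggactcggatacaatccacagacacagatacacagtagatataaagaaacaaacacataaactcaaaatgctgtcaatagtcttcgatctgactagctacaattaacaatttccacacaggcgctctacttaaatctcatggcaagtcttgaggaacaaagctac
Fosb: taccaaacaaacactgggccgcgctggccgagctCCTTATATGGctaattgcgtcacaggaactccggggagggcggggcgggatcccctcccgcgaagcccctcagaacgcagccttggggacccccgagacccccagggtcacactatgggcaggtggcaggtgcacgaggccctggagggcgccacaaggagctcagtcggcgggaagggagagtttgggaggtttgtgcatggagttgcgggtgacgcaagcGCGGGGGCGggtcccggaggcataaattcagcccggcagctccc
Nab1: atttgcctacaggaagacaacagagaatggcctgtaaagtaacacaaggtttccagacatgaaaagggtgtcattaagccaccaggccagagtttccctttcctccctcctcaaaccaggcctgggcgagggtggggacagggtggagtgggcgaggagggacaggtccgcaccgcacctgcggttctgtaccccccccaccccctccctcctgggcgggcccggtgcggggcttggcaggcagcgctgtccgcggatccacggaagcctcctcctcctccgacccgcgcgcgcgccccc

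The search covered both strands of the promoters of 9 members, Atf3 included, with that of Egr1 not analysed here, for the CArG box bound by SRF, the CREB site TGACGTCA, the AP-1 site TGANTCA, the EGR site GCGNGGGCG and the ETS site CCGGAAG. No 2 marked matches overlapped. Ier2 held TGACGTCA from base -43. Nab2 held GCGNGGGCG from base -263. Fosb held a CArG box from base -266 and GCGNGGGCG from base -44. Among 21756 protein-coding promoters of the same length, 1.7% held a CArG box, 1.75% TGACGTCA, 7.38% TGANTCA, 4.71% GCGNGGGCG and 7.37% CCGGAAG. None of the 9 windows searched held TGANTCA or CCGGAAG, which says only that these letters are absent there.

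**Figure D1:**
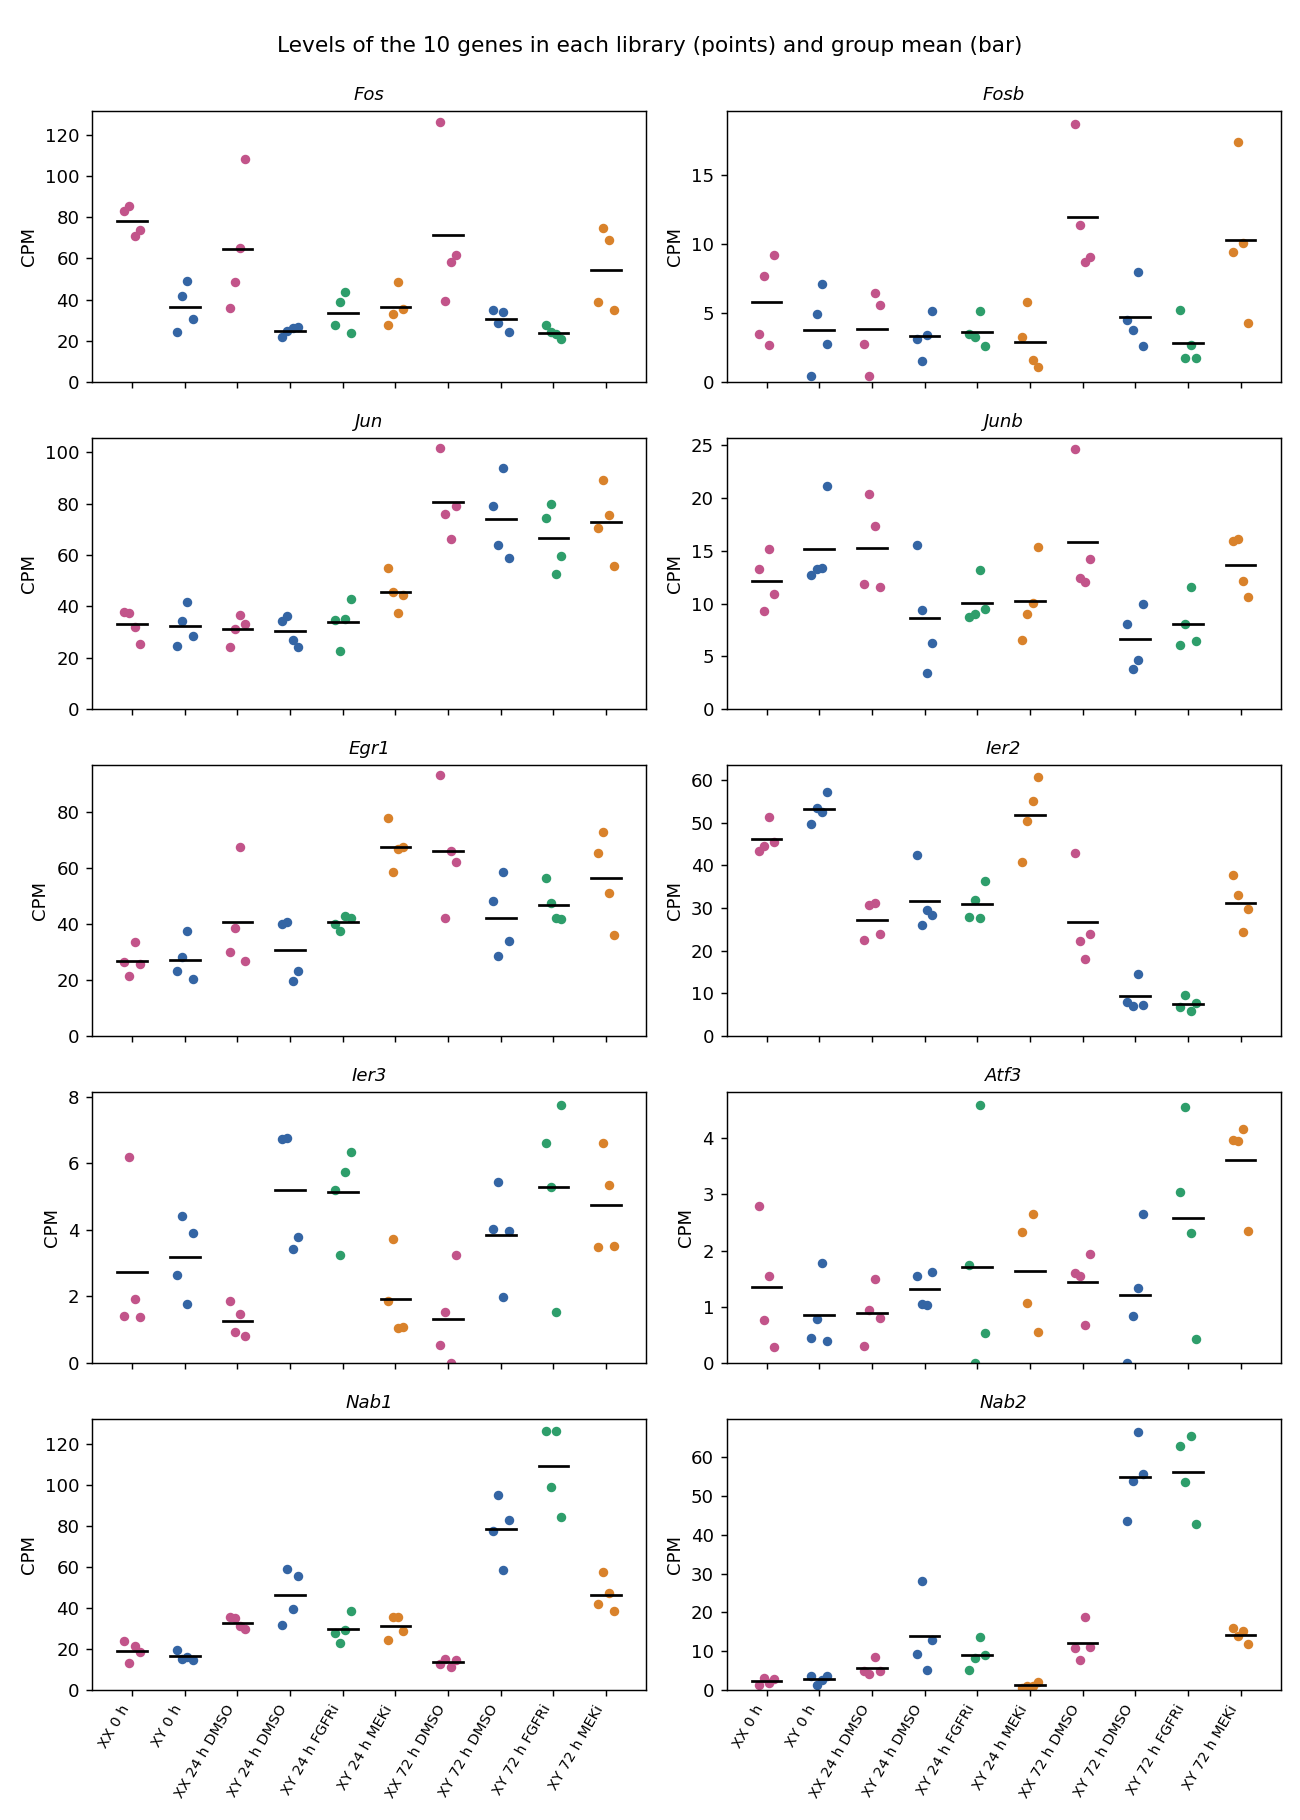
CPM of the 10 members (vertical axes, linear from 0) in each of 40 libraries (points), with the mean of each group of 4 as a bar; pink is XX, blue XY at 0 h or in DMSO, green FGFRi and orange MEKi. Nab1 and Nab2 are highest in XY 72 h DMSO and FGFRi, Ier2 is lowest there, and Fos is higher in XX than in XY at 0 h and in DMSO at both later times.

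The mean levels of the corepressor genes were higher with time in culture in XY germ cells. Nab2 (chr10:127496786-127504458, minus strand) was near the detection limit at 0 h, with 1.40, 3.09, 1.94 and 2.79 CPM in XX and 3.51, 1.30, 2.67 and 3.53 CPM in XY libraries. After 24 h in DMSO it was 9.33, 28.1, 5.16 and 13.0 CPM in XY, and after 72 h it was 43.4, 53.9, 66.6 and 55.7 CPM. All XY 72 h DMSO libraries stood above all XY 24 h DMSO libraries, which in turn stood above all XY 0 h libraries. Nab2 rose from 0 h to 24 h in XY by 2.21 ± 0.43 (log2 fold change ± SE, treat adjusted p = 0.0118) and from 24 h to 72 h by 2.24 ± 0.23 (treat adjusted p = 3.5e-08). Over the alternative fits the log2 fold change from 0 h to 24 h ran from 1.675 to 3.32.

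Nab1 (chr1:52494147-52539838, minus strand) measured 19.7, 15.0, 16.0 and 14.9 CPM in XY 0 h libraries. It measured 31.6, 58.9, 39.5 and 55.7 CPM in XY 24 h DMSO. The groups did not overlap, and Nab1 rose by 1.53 ± 0.22 (treat adjusted p = 0.00224). At 72 h in DMSO the XY libraries held 77.4, 95.3, 58.6 and 82.9 CPM, a further log2 difference of 0.75 ± 0.16 that passed only the test for any change (limma adjusted p = 7.0e-05). Of 15252 genes, 1.61% were called higher and 1.33% lower from 0 h to 24 h in XY DMSO, against 2 members higher and 0 lower. From 24 h to 72 h in XY DMSO these shares were 16.0% and 11.3%. Both 24 h calls rested on single libraries: without XY 0 h replicate 3 the treat adjusted p was 0.368 for Nab2 and 0.0555 for Nab1, and without XY 24 h DMSO replicate 5 that of Nab1 was 0.112. With no filter on low counts they were 0.131 for Nab2 and 0.152 for Nab1.

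In XX germ cells Nab1 took another course. Its level was 23.8, 13.1, 21.7 and 18.4 CPM at 0 h, 35.5, 35.0, 31.2 and 29.9 CPM at 24 h and 12.9, 15.0, 11.4 and 14.9 CPM at 72 h. All 24 h values exceeded all 0 h and all 72 h values. The difference from 0 h to 24 h was 0.84 ± 0.21 and passed only the test for any change (limma adjusted p = 0.00208). The difference from 24 h to 72 h was -1.24 ± 0.28 with a treat adjusted p of 0.05003, just above the threshold, and edgeR's test of the same fold called it lower (adjusted p = 0.00146). Without XX 24 h DMSO replicate 6 or replicate 9 the treat adjusted p was 0.0488 and 0.0476. Nab2 in XX was 4.98, 4.25, 8.42 and 4.79 CPM at 24 h and 7.74 to 18.7 CPM at 72 h, and no step of its course passed the treat test. With the index carry-over subtracted, the XX difference of Nab2 from 24 h to 72 h was 1.90 in place of 1.06 on the log2 scale and was called higher (treat adjusted p = 0.0291).

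At 72 h in DMSO both corepressor genes differed between the sexes. Nab1 was 5.57-fold higher in XY than XX (2.48 ± 0.26, treat adjusted p = 8.0e-09). Nab2 was 4.87-fold higher (2.28 ± 0.27, treat adjusted p = 3.1e-07). For both genes every XY library exceeded every XX library, and the calls held when any library was left out. At 24 h neither difference was called: that of Nab1 was 0.49 ± 0.19 and that of Nab2 1.10 ± 0.38. Both passed the test for any change (limma adjusted p = 0.0356 and 0.0164). With the index carry-over between pools subtracted, Nab2 at 24 h was called higher in XY (1.89, treat adjusted p = 0.0460), as it was by edgeR (adjusted p = 0.0362). At 0 h Nab1 differed by -0.20 ± 0.24 and Nab2 by -0.07 ± 0.53.

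The change of the sex difference between 24 h and 72 h was tested in a contrast added after the values had been seen. The XY less XX difference of Nab1 grew by 1.99 ± 0.32 (treat adjusted p = 3.1e-04), and that of Nab2 by 1.18 ± 0.47, which was not called (treat adjusted p = 0.255). In this contrast 16.2% of genes were called higher and 9.93% lower, and among the members 1 was higher (Nab1) and 1 lower (Ier2).

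Nab2 was lower with MEKi than with DMSO at both times. At 24 h it measured 0.464, 1.06, 1.06 and 2.19 CPM in the MEKi libraries, with 1 to 4 counts in each and 9 in all, below every DMSO library. The difference from DMSO was -3.15 ± 0.55 (95% interval -4.25 to -2.04, treat adjusted p = 0.00847). Nab2 was the only member among the 17 genes called lower (0.111% of genes), with 8 genes called higher (0.0525%). Without XY 24 h MEKi replicate 1 its treat adjusted p was 0.175. Against XY 0 h, Nab2 in 24 h MEKi differed by -0.94 ± 0.64 (95% interval -2.22 to 0.34), which passed neither test. At 72 h Nab2 was 15.9, 13.8, 15.3 and 11.8 CPM with MEKi, again below every DMSO library, a difference from DMSO of -1.89 ± 0.18 (treat adjusted p = 1.8e-07). At 72 h, 4.01% of genes were called higher and 5.11% lower with MEKi, and 1 member was called in each direction.

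In a comparison added after the values had been seen, Nab2 in XY 72 h MEKi differed from XX 72 h DMSO by 0.39 ± 0.29 (95% interval -0.18 to 0.97). Nab1 differed: it measured 42.2, 57.8, 47.4 and 38.4 CPM in XY 72 h MEKi, 3.38-fold above XX 72 h DMSO (1.76 ± 0.26, treat adjusted p = 1.1e-04). Against XY DMSO, Nab1 with MEKi was lower by -0.62 ± 0.19 at 24 h and by -0.72 ± 0.14 at 72 h, and neither passed the treat test, though both passed the test for any change (limma adjusted p = 0.0433 and 4.6e-05). In XY 72 h MEKi against XX 72 h DMSO, 17.2% of genes were called higher and 12.8% lower.

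With FGFRi no change of Nab2 was called. At 24 h it measured 5.21, 8.15, 13.8 and 8.97 CPM with FGFRi, within the DMSO range, and at 72 h it measured 62.8, 53.5, 65.3 and 42.7 CPM, overlapping DMSO. The log2 differences from DMSO were -0.29 ± 0.35 (95% interval -0.98 to 0.40) at 24 h and 0.09 ± 0.15 (95% interval -0.20 to 0.38) at 72 h. Nab1 with FGFRi was 27.8, 22.8, 29.3 and 38.5 CPM at 24 h and 126.7, 99.2, 126.4 and 84.5 CPM at 72 h. Its differences from DMSO were -0.64 ± 0.21 at 24 h and 0.49 ± 0.14 at 72 h, and neither was called. The change of the Nab1 difference from 24 h to 72 h was 1.14 ± 0.25 and passed only the test for any change (limma adjusted p = 0.00536). At 24 h that difference cannot be told apart from the pool. The direct comparison of the inhibitors at 72 h called both genes lower with MEKi than with FGFRi, Nab2 by -1.98 ± 0.17 (treat adjusted p = 5.3e-09) and Nab1 by -1.21 ± 0.13 (treat adjusted p = 1.9e-04). At 24 h the Nab2 difference was -2.86 ± 0.59, with a treat adjusted p of 0.115, while edgeR and DESeq2 each called it (adjusted p = 0.00593 and 0.0318).

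**Figure D2:**
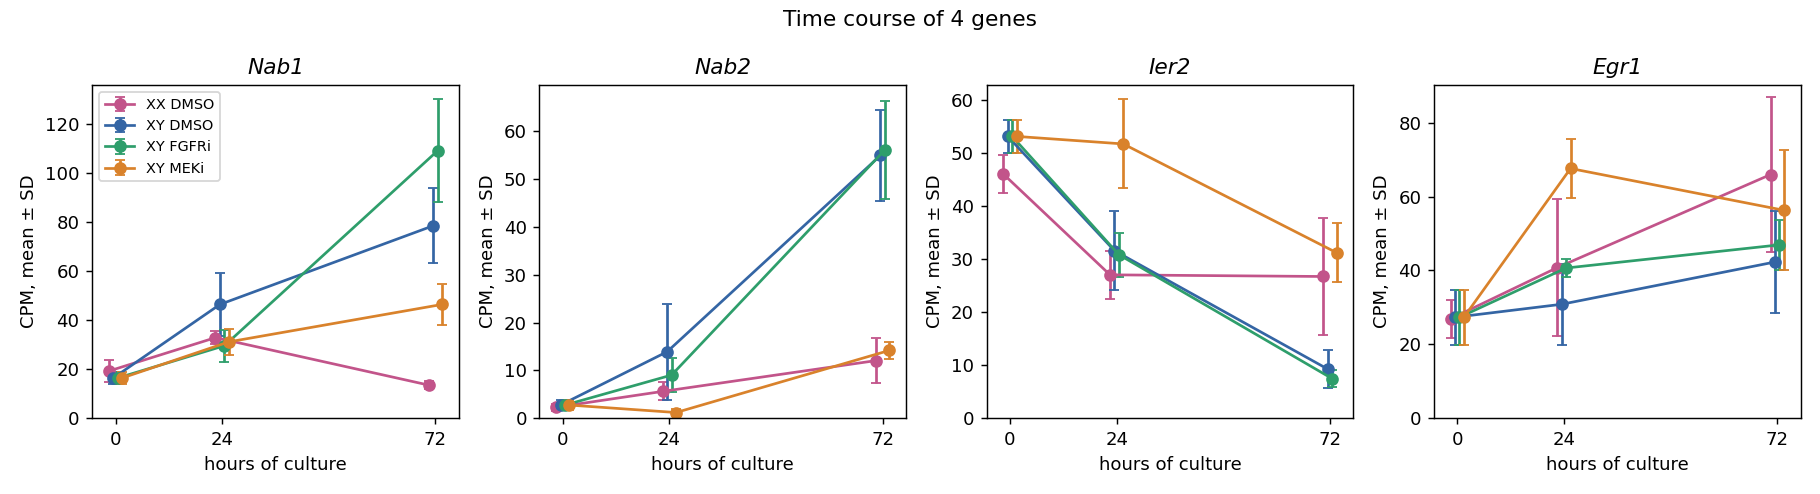
Mean CPM ± SD (vertical axes, linear from 0) of Nab1, Nab2, Ier2 and Egr1 at 0, 24 and 72 h for XX DMSO, XY DMSO, XY FGFRi and XY MEKi, 4 libraries a point, with inhibitor lines starting from XY 0 h and points offset sideways for clarity. Nab2 reaches 54.9 CPM in XY 72 h DMSO and 14.2 CPM with MEKi, while Ier2 drops to 9.28 CPM in DMSO and is 31.3 CPM with MEKi.

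Ier2 (chr8:85387960-85389483, minus strand), which encodes a nuclear regulator induced by growth factors, ran the other way. At 0 h it was evenly expressed, at 43.4, 44.4, 51.2 and 45.4 CPM in XX and 49.6, 53.4, 52.6 and 57.2 CPM in XY. After 24 h in DMSO it was 22.4, 30.7, 31.2 and 24.0 CPM in XX and 42.5, 26.1, 29.6 and 28.4 CPM in XY. Both sexes were lower than at 0 h without overlap, by -0.83 ± 0.17 in XX and -0.79 ± 0.16 in XY, which passed only the test for any change (limma adjusted p = 1.9e-04 and 1.8e-04).

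The sexes parted at 72 h. XX 72 h DMSO libraries held 42.8, 22.2, 18.1 and 23.9 CPM of Ier2, and XY libraries 8.06, 7.11, 14.7 and 7.30 CPM. Every XY library was below every XX library. Ier2 fell in XY from 24 h to 72 h by -1.80 ± 0.27 (treat adjusted p = 1.2e-04) and was lower in XY than XX at 72 h by -1.61 ± 0.28 (treat adjusted p = 0.00120). In the added contrast the XY less XX difference fell by 1.85 on the log2 scale from 24 h to 72 h (SE 0.34, treat adjusted p = 0.00188). All 3 calls held when any library was left out.

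MEKi left Ier2 above DMSO. At 24 h MEKi libraries held 40.9, 50.5, 55.0 and 60.8 CPM, with the lowest of them below the highest DMSO library, and the difference of 0.71 ± 0.17 passed only the test for any change (limma adjusted p = 0.00511). Against XY 0 h, Ier2 in 24 h MEKi differed by -0.08 ± 0.15 (95% interval -0.38 to 0.22). At 72 h MEKi libraries held 37.7, 33.1, 24.4 and 29.8 CPM, all above DMSO. Ier2 was called higher by 1.70 ± 0.26 (3.26-fold, treat adjusted p = 8.3e-04), and higher than in FGFRi by 1.93 ± 0.22 (treat adjusted p = 2.5e-06). FGFRi libraries at 72 h held 6.77, 9.59, 5.80 and 7.76 CPM, overlapping DMSO. Relative to XX 72 h DMSO, Ier2 in XY 72 h MEKi differed by 0.10 ± 0.19 (95% interval -0.28 to 0.48). The change of the MEKi difference from 24 h to 72 h was 0.99 ± 0.30 and was not called (treat adjusted p = 0.687). It passed only the test for any change (limma adjusted p = 0.0133).

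**Figure D3:**
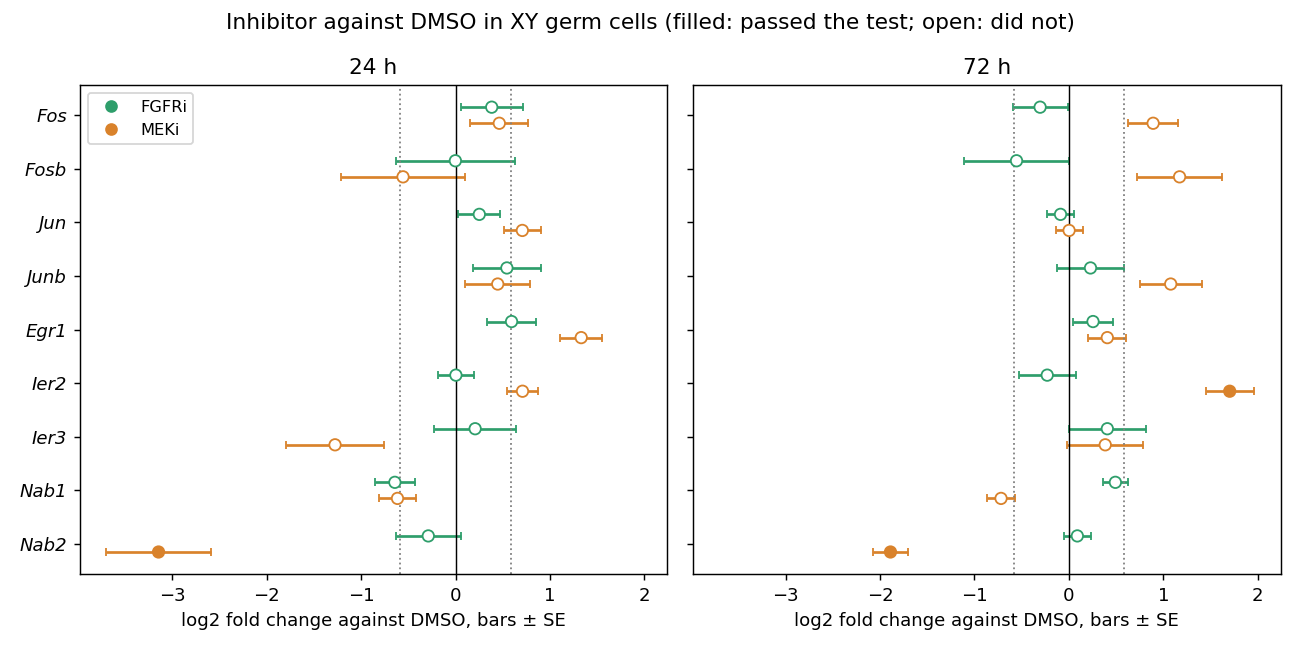
Log2 fold change ± SE (horizontal axes) of 9 tested members in FGFRi (green) and MEKi (orange) against DMSO in XY germ cells at 24 h and 72 h, filled where the treat test passed, with dotted lines at a fold of 1.5. The filled points are Nab2 with MEKi at 24 h, and Nab2 and Ier2 with MEKi at 72 h.

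Egr1, a zinc finger transcription factor that NAB proteins bind, did not fall with MEKi. It measured 39.9, 40.6, 19.6 and 23.3 CPM in XY 24 h DMSO and 78.0, 58.4, 66.7 and 67.3 CPM in XY 24 h MEKi, without overlap. The difference was 1.33 ± 0.23 (2.52-fold, 95% interval 0.88 to 1.78), with a treat adjusted p of 0.274 and a limma adjusted p for any change of 7.9e-05; a fit of only the groups compared called it (treat adjusted p = 0.0366). Against XY 0 h, where it measured 23.3, 28.3, 37.4 and 20.4 CPM, Egr1 in 24 h MEKi was called higher by 1.39 ± 0.23 (treat adjusted p = 0.0143). In that comparison 1.67% of genes were called higher and 1.88% lower. The call did not survive leaving out XY 0 h replicate 3, XY 0 h replicate 6 or XY 24 h MEKi replicate 1 (treat adjusted p = 0.0581, 0.0859 and 0.0777), and DESeq2 did not make it (adjusted p = 0.0959).

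FGFRi at 24 h gave 39.9, 37.5, 43.0 and 42.2 CPM of Egr1, a difference from DMSO of 0.59 ± 0.26 that was not called. At 72 h Egr1 was 48.3, 28.4, 58.6 and 33.8 CPM in XY DMSO, 65.5, 72.7, 50.9 and 36.1 CPM with MEKi and 56.4, 47.4, 42.1 and 41.8 CPM with FGFRi. These groups overlapped, and MEKi differed from DMSO by 0.41 ± 0.20. In XX, Egr1 was 26.6, 21.6, 33.8 and 25.6 CPM at 0 h, 30.2, 38.8, 67.4 and 26.7 CPM at 24 h and 93.2, 42.3, 66.2 and 62.1 CPM at 72 h, and XY differed from XX by -0.65 ± 0.22 at 72 h, which only the test for any change passed (limma adjusted p = 0.00896). Over the 10 group means, the genes most like Egr1 were Acad9 (Pearson r = 0.926) and Nrep (r = 0.908), and those most like Nab2 were Slc5a3 (r = 0.965) and Evc2 (r = 0.959); these are descriptions over 10 points that share libraries and pools.

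Markers of another cell type moved with the 24 h MEKi group. The summed level of 13 endothelial and blood cell markers was 280.9 to 537.1 CPM in 24 h MEKi libraries, against 116.0 to 179.9 CPM in 24 h DMSO and 106.8 to 127.7 CPM in 24 h FGFRi. The embryonic globin genes Hba-x and Hbb-y and the globin gene Hba-a2 were called higher with 24 h MEKi, by 3.18, 3.55 and 2.02 on the log2 scale, of 6 listed genes that were tested. The leucocyte marker Ptprc had 1 count over the 4 DMSO libraries and 4 over the 4 MEKi libraries, and the endothelial marker Cdh5 had 14 and 4. At 72 h the summed level was 28.6 to 42.3 CPM with MEKi and 39.8 to 69.7 CPM with DMSO, and Cdh5 was the 1 gene of 6 called between them. Cdh5 was lower with 72 h MEKi than with DMSO by -2.54 ± 0.45 (treat adjusted p = 9.4e-04), with means of 1.81 and 9.72 CPM, and lower than with FGFRi by -1.92 ± 0.44 (treat adjusted p = 0.0195). It was also higher in XY 72 h DMSO than in XX 72 h DMSO by 4.44 ± 0.71 (treat adjusted p = 5.2e-06) and than in XY 24 h DMSO by 2.67 ± 0.53 (treat adjusted p = 7.5e-04). In each of these comparisons Nab2 was called in the same direction as Cdh5. From XY 0 h to 24 h DMSO Nab2 was called higher, while Cdh5 differed by -0.73 ± 0.61 and was not called. For 24 h MEKi against DMSO Nab2 was called lower, while Cdh5 differed by -1.46 ± 0.79 and was not called. Pecam1, an endothelial marker that foetal germ cells also express, did not follow Cdh5. It was called lower from 24 h to 72 h in XY DMSO by -3.14 ± 0.35 (treat adjusted p = 1.7e-08), from 29.7 to 93.5 CPM at 24 h to 5.37 to 9.32 CPM at 72 h, and in XX DMSO by -3.92 ± 0.40 (treat adjusted p = 7.7e-10). With 72 h MEKi it differed from DMSO by 1.26 ± 0.36 and from FGFRi by 1.27 ± 0.30, which passed only the test for any change (limma adjusted p = 0.00339 and 3.5e-04). The part of endothelial and blood cells in the Egr1, Ier2, Nab1 and Nab2 results was not tested.

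Gonadal somatic cell markers moved from 24 h to 72 h. Of 14 tested, 5 were called higher in XX DMSO (median log2 fold change 1.49) and 4 in XY DMSO (median 0.90), with 0 lower in either. Of all genes, 10.3% were called higher and 11.9% lower in XX, and 16.0% higher and 11.3% lower in XY. The summed level of the 18 listed was 31.7 to 43.6 CPM in XX 24 h DMSO and 104.3 to 164.3 CPM in XX 72 h DMSO, and 52.5 to 123.9 CPM in XY 24 h DMSO and 107.8 to 152.6 CPM in XY 72 h DMSO. The XX ranges did not overlap, and the XY ranges did. Wt1, which marks supporting and other gonadal somatic cells, had a mean of 3.38 CPM in XX at 24 h and 23.4 CPM at 72 h, and Nr2f2, an interstitial cell marker, 5.89 and 29.7 CPM. For XY against XX at 72 h, 1 of the 14 was called higher, Tcf21, and 3 lower, Wt1, Nr5a1 and the granulosa cell gene Foxl2. With 72 h MEKi against DMSO 0 of the 14 were called, with 0 at an unadjusted p under 0.05, and against FGFRi 1 was called higher, Nr2f2. The part of somatic cells in the changes of Jun, Fosb, Nab1, Nab2, Ier2 and Junb over these comparisons was not tested.

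Fos (chr12:85520658-85524047, plus strand), a FOS family subunit of AP-1, separated the sexes at every time, with XX above XY. At 0 h it was 83.2, 85.3, 71.0 and 73.9 CPM in XX and 24.1, 41.8, 49.0 and 30.6 CPM in XY. At 24 h in DMSO it was 35.8, 48.7, 64.9 and 108.2 CPM in XX and 21.8, 25.0, 26.1 and 26.8 CPM in XY. At 72 h in DMSO it was 126.3, 39.2, 58.2 and 61.5 CPM in XX and 34.9, 28.8, 34.0 and 24.6 CPM in XY. At each time every XY library lay below every XX library in a wide spread of XX values at 24 h and 72 h. The differences were -1.11 ± 0.24, -1.25 ± 0.29 and -1.12 ± 0.28, with treat adjusted p of 0.281, 0.102 and 0.0776 and limma adjusted p for any change of 3.2e-04, 3.7e-04 and 5.1e-04. edgeR's test of the same fold called Fos lower in XY at 24 h (adjusted p = 0.0208) and at 72 h (adjusted p = 0.0188). Without XX 24 h DMSO replicate 4 the 24 h treat adjusted p was 0.0249, and without XX 72 h DMSO replicate 4 the 72 h treat adjusted p was 0.0135.

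Fos with 72 h MEKi held 38.7, 74.7, 69.0 and 34.9 CPM, its lowest library level with the highest of DMSO. The difference was 0.89 ± 0.26 and passed only the test for any change (limma adjusted p = 0.00416). At 24 h MEKi held 27.9, 32.9, 48.7 and 35.6 CPM, all above DMSO, with a difference of 0.46 ± 0.31 that passed neither test. FGFRi differed from DMSO by 0.38 ± 0.33 at 24 h and by -0.30 ± 0.29 at 72 h. MEKi exceeded FGFRi at 72 h by 1.20 ± 0.24 (treat adjusted p = 0.0523), a value that edgeR called (adjusted p = 0.0437) and that fell to 0.0182 and 0.00827 without XY 72 h MEKi replicate 2 or 5.

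Fosb (chr7:19036621-19043976, minus strand), a FOS relative, was low. It stayed at 0.439 to 9.20 CPM in all libraries of 0 h and 24 h. At 72 h it was 18.7, 11.4, 8.70 and 9.06 CPM in XX DMSO, 4.48, 3.76, 7.99 and 2.65 CPM in XY DMSO and 9.43, 17.4, 10.1 and 4.31 CPM in XY MEKi. Fosb rose in XX from 24 h to 72 h by 2.14 ± 0.59 (treat adjusted p = 0.0268), which did not hold without XX 24 h DMSO replicate 5 or XX 72 h DMSO replicate 11 (treat adjusted p = 0.193 and 0.104) or in DESeq2 (adjusted p = 0.0851). In the same step 5 of 14 gonadal somatic cell markers were called higher, beside 10.3% of all genes. With MEKi it was higher than with FGFRi at 72 h by 1.73 ± 0.44 (treat adjusted p = 0.0466), which did not hold without XY 72 h FGFRi replicate 4, 5 or 6 or XY 72 h MEKi replicate 3 or 4 (treat adjusted p between 0.0523 and 0.293). Nor was it called by DESeq2 (adjusted p = 0.152), with RLE scaling (0.0605) or with no filter on low counts (0.472). The XY less XX difference of -1.39 ± 0.49 at 72 h was not called, though edgeR called it (adjusted p = 0.0387), as did a fit of only the groups compared (treat adjusted p = 0.0414).

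Jun (chr4:94937271-94940459, minus strand), the common partner of FOS proteins, followed time rather than sex. It lay between 22.8 and 54.8 CPM in all libraries of 0 h and 24 h and between 52.6 and 101.7 CPM in all libraries of 72 h, with an overlap only through 2 of the libraries, XY 24 h MEKi replicate 1 and XY 72 h FGFRi replicate 5. Jun rose from 24 h to 72 h in XY DMSO by 1.38 ± 0.19 (treat adjusted p = 2.9e-04) and in XX DMSO by 1.43 ± 0.19 (treat adjusted p = 3.1e-04). In these steps 4 and 5 of 14 gonadal somatic cell markers were called higher, beside 16.0% and 10.3% of all genes. Junos, a lncRNA gene on the opposite strand that spans the 3189 bases of the Jun gene, was called higher in that step in XY (3.87, treat adjusted p = 1.2e-05) but not in XX (0.98, treat adjusted p = 0.560). No sex difference of Jun was called at any time, and at 72 h XY differed from XX by -0.16 ± 0.16. MEKi at 24 h gave 54.8, 45.7, 37.6 and 44.4 CPM, above every DMSO library, a difference of 0.71 ± 0.20 that passed only the test for any change (limma adjusted p = 0.0209). At 72 h MEKi and DMSO differed by 0.00 ± 0.14 (95% interval -0.29 to 0.29).

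Junb (chr8:85701113-85705359, minus strand), another JUN family member, was low and variable. At 72 h it was 24.6, 12.4, 12.0 and 14.2 CPM in XX DMSO and 8.06, 3.76, 4.66 and 9.95 CPM in XY DMSO. The groups did not overlap, and Junb was called lower in XY by -1.35 ± 0.36 (treat adjusted p = 0.0484). The call was lost without XX 72 h DMSO replicate 11 or without XY 72 h DMSO replicate 4 or 5 (treat adjusted p = 0.213, 0.193 and 0.0851). DESeq2 did not make it (adjusted p = 0.0968), nor did the fits with no filter (0.107), no quality weights (0.0661) or index carry-over subtracted (0.0529). With 72 h MEKi the libraries held 15.9, 16.1, 12.1 and 10.6 CPM, all above DMSO, a difference of 1.08 ± 0.33 that passed only the test for any change (limma adjusted p = 0.00553). Its gene model shares 1238 bases with Prdx2 on the opposite strand, and counting used the strand. Prdx2 was called higher with 72 h MEKi than with DMSO (1.14, treat adjusted p = 0.00759) and than with FGFRi (1.13, treat adjusted p = 0.00222), and its part in the Junb values was not tested.

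Ier3 (chr17:36132568-36133815, plus strand), an early response gene linked to cell survival, and Atf3 (chr1:190902493-190950241, minus strand), a stress-responsive bZIP factor, were near the detection limit. Ier3 reached at most 7.76 CPM. It was lower in XX 24 h DMSO (1.87, 0.945, 1.49 and 0.798 CPM) than in XY 24 h DMSO (6.74, 6.77, 3.44 and 3.79 CPM), without overlap. The difference of 1.77 ± 0.57 was not called (treat adjusted p = 0.155). It passed the test for any change (limma adjusted p = 0.0105), and edgeR called it (adjusted p = 0.0216). Ier3 was called higher in XY 72 h MEKi (3.47, 6.63, 5.35 and 3.53 CPM) than in XX 72 h DMSO (0.535, 1.55, 0 and 3.24 CPM), by 1.94 ± 0.56 (treat adjusted p = 0.0335), and the call was lost without any of 5 libraries, XX 72 h DMSO replicates 4, 7 and 11 and XY 72 h MEKi replicates 3 and 4 (treat adjusted p between 0.0554 and 0.141), in DESeq2 (adjusted p = 0.144) and with no filter (0.0766). Atf3 had 0 to 22 counts in a library and at most 4.59 CPM, and its highest group mean was 3.61 ± 0.84 CPM (SD, n = 4) in XY 72 h MEKi.

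The library XX 72 h DMSO replicate 11 held the highest value of its group for Fos, Fosb, Jun, Junb, Egr1 and Ier2, and the calls of Junb and Fosb above depended on it. Without it the XY less XX difference of Ier2 at 72 h kept its call. Across the 40 libraries, the deviation of Fos from its group mean went with that of Fosb (Pearson r = 0.533, Spearman rho = 0.535, permutation p = 0.00362 and 0.00219 within groups, 2-sided, adjusted over 8 members 0.029 and 0.0175). Without the 2 libraries farthest from the median of Fos, r was 0.490, and it was 0.457 in pool 1 and 0.692 in pool 2. For Jun r was 0.384 and for Egr1 0.337, with adjusted permutation p of 0.118 and 0.296. In pool 1 and pool 2 r was 0.360 and 0.402 for Jun but 0.0159 and 0.657 for Egr1. Over all libraries the remaining members lay between -0.146 and 0.224. The deviation of Fos had an r of 0.124 with the library total.

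**Figure D4:**
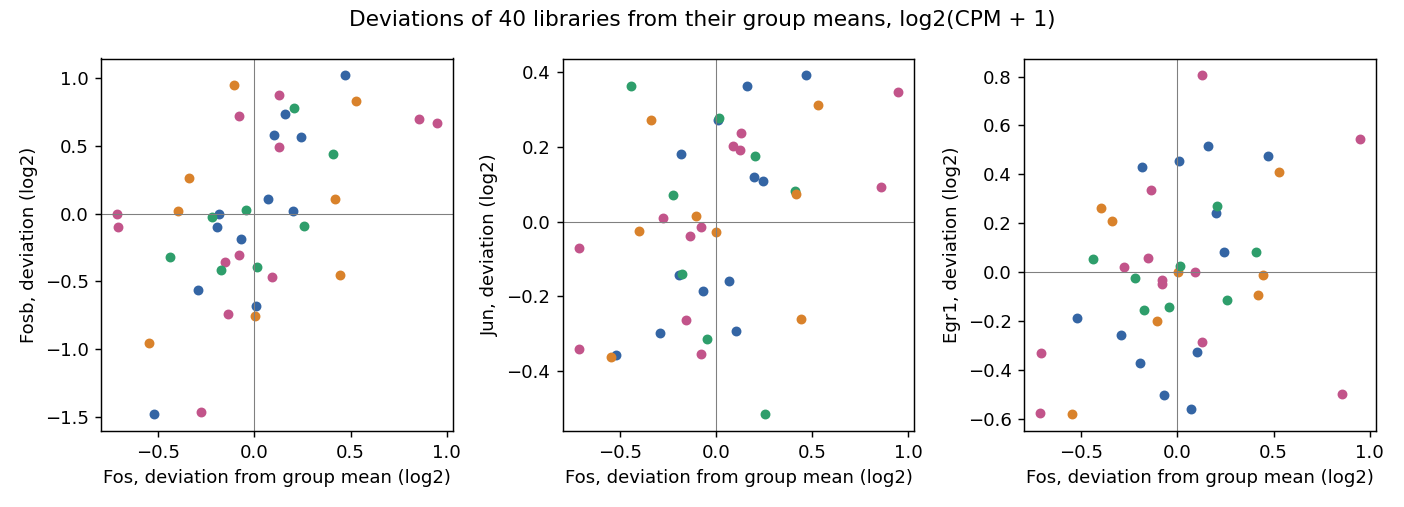
Deviation of 40 libraries from their group means on the log2(CPM + 1) scale, Fos on the horizontal axis against Fosb, Jun and Egr1 on the vertical axes, in the group colours used for the levels. The points rise together for Fosb (r = 0.533) and are looser for Jun (r = 0.384) and Egr1 (r = 0.337, with 0.0159 in pool 1 and 0.657 in pool 2).

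The members that passed the treat test are counted here beside the shares of all genes called higher and lower. XY against XX gave 0 called of 9 at 0 h (205 and 252 genes, 1.34% higher and 1.65% lower), with 1 at an unadjusted p under 0.05 and 0 by edgeR or DESeq2. It gave 0 at 24 h (4.00% and 5.99%), with 2 at an unadjusted p under 0.05, 3 by edgeR and 0 by DESeq2, and 4 at 72 h (22.8% higher, 18.1% lower): Nab1 and Nab2 higher, Junb and Ier2 lower. XX 24 h DMSO against 0 h gave 0 (2.32% and 0.911%), with 0 at an unadjusted p under 0.05 and 0 by edgeR or DESeq2, and XX 72 h against 24 h gave 2 higher, Fosb and Jun (10.3% and 11.9%). In XY DMSO, 24 h against 0 h gave 2 higher, Nab1 and Nab2 (1.61% and 1.33%). There 72 h against 24 h gave 2 higher, Nab2 and Jun, and 1 lower, Ier2 (16.0% and 11.3%).

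Under FGFRi, 0 members were called at 24 h (0.131% of genes higher and 0.131% lower) and 0 at 72 h (0.00656% and 0%), with 0 at an unadjusted p under 0.05 and 0 by edgeR or DESeq2 at both times. MEKi against FGFRi called 0 members at 24 h (0.0131% and 0.0918%), with 1 at an unadjusted p under 0.05 and 1 by edgeR and 1 by DESeq2, and 4 at 72 h, Fosb and Ier2 higher and Nab1 and Nab2 lower (5.71% and 6.98%). The change of the MEKi effect between 24 h and 72 h called 0 members (1.21% and 0.675%), with 0 at an unadjusted p under 0.05, and that of the FGFRi effect 0 (0.0262% and 0.00656%), with 1 at an unadjusted p under 0.05; edgeR and DESeq2 gave 0 in both. With any change of more than 1.5-fold counted, 5 members passed for MEKi at 24 h (1.47% of genes higher and 2.18% lower) and 6 at 72 h (15.6% and 15.6%): 3 higher at 24 h (Jun, Egr1 and Ier2) and 4 higher at 72 h (Fos, Fosb, Junb and Ier2), with Nab1 and Nab2 lower at both.

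Other immediate early genes and ERK outputs give the setting. Of 40 other immediate early genes, 33 were tested; with MEKi 0 were called at 24 h, with 2 at an unadjusted p under 0.05, and 4 at 72 h, with Zfp36l1 and Gadd45b higher and Egr4 and Zfp36 lower. Their median log2 fold change with MEKi was 0.06 at 24 h and 0.08 at 72 h, against -0.02 and 0.01 over all genes tested and 0.45 and 0.41 over the 9 members. Egr4, another EGR gene, was lower with 72 h MEKi than with DMSO by -1.34 ± 0.16 (treat adjusted p = 4.1e-04). It was 73.8 ± 5.86 CPM with DMSO, 28.5 ± 2.94 CPM with MEKi and 3.60 ± 1.64 CPM in XX 72 h DMSO (SD, n = 4). Of 11 tested genes of ERK pathway output, 2 fell with MEKi at 24 h, Etv1 and Etv4 (list median -0.94), and 2 at 72 h, Etv4 and Etv5 (list median -0.27). With FGFRi 4 of the 11 fell at 24 h, Etv1, Etv4, Dusp4 and Dusp6 (list median -1.55), and 0 were called at 72 h (list median -0.68), with 1 at an unadjusted p under 0.05. Etv4, an ETS factor induced by FGF signalling, was 27.9 ± 7.19 CPM in XY 24 h DMSO, 1.73 ± 1.32 CPM with MEKi and 0 in all 4 FGFRi libraries. Of 16 tested SRF, TCF and CREB factors and their kinases, 0 were called with MEKi at 24 h, with 0 at an unadjusted p under 0.05, and 1 at 72 h, Mapk3, which encodes ERK1 and was lower by -1.31 ± 0.13 (list medians -0.14 and 0.04, treat adjusted p = 2.5e-05). Of 16 stress and heat shock genes, 0 were called with MEKi at 24 h, with 0 at an unadjusted p under 0.05, and 1 was lower at 72 h (list medians 0.04 and -0.29). For XY against XX at 72 h in DMSO, 8 of the 16 were higher and 2 lower, beside 22.8% and 18.1% of all genes. From 24 h to 72 h in XY DMSO, 3 of the 16 were higher and 2 lower, and 8 of the 11 ERK outputs were lower. In that step 16.0% of all genes were higher and 11.3% lower.

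Nab2 shares 77 bases at its 3' end with Stat6, 1689 bases with Nemp1 and 1646 bases with the lncRNA gene Gm16229, all on the opposite strand, and counting used the strand. Stat6 was 3.38 ± 0.84 CPM in XY 72 h DMSO and 1.13 ± 0.51 CPM with MEKi, and Nemp1 22.6 ± 1.75 and 15.1 ± 4.33 CPM (SD, n = 4). Nemp1 was not called with 72 h MEKi (-0.59, treat adjusted p = 1), and in XX 72 h DMSO it was 29.1 ± 4.00 CPM. The part of these genes in the Nab2 values was not tested.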

How the data were processed

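RNA from sorted germ cells was primed at poly(A) tails, with a unique molecular identifier on each primer. The authors demultiplexed and counted the reads with scPipe and Rsubread on GRCm39, using the strand, and deposited 1 table of gene counts, in which reads sharing an identifier are collapsed; versions and the annotation release are not given in the sources used here. The deposited counts are raw and range from 1178953 to 5199153 a library. Per the labels each group held 4 libraries. As in the study, XY was compared with XX, 24 h DMSO with 0 h and each inhibitor with DMSO; 72 h DMSO was compared with 24 h, and 24 h MEKi with 0 h, MEKi with FGFRi, 72 h MEKi with XX and changes of a difference were further comparisons. The fit followed the study's methods: genes kept by filterByExpr (minimum count 10, minimum total 15), TMM scaling, voom with quality weights over all 40 libraries, and limma's treat test at a fold of 1.5 (log2 0.585) with Benjamini-Hochberg adjustment at 0.05. Tools were R 4.3.3, limma 3.58.1, edgeR 4.0.16 and DESeq2 1.42.0. Gene symbols came from GENCODE M39, which matched 40391 of 42422 identifiers.

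The fit was tested on simulated data for XY 24 h MEKi against DMSO over 15252 genes, where 64% and 88% of 50 genes changed by log2 -2 and 2 were called, and 6% and 18% of those changed by -1 and 1. Apart from the changed genes, all groups were simulated from the same mean profile, so these shares need not hold for the real comparison. Replicates may share a culture, so p-values measure the spread between these libraries. Genes named are the 10 members, genes of the other lists called in the comparison described, up to 5 genes whose group means are most like Egr1 or Nab2, and genes that check sex or ERK output; alternatives were edgeR, DESeq2, another scaling, filter and weighting, and each library left out. The members and lists were chosen with earlier results of these data known.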

Additional observations from a re-analysis of the deposited data

Results flagged for a closer look

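In the 100 sets of 4 libraries formed by 10 members and 10 groups, 4 held a library whose gap to the nearest of the others passed Dixon's 95% critical value; chance sets about 1 in 20 such sets apart. They were Junb in XY 0 h replicate 6 (21.2 CPM, highest), Ier2 in XY 72 h DMSO replicate 5 (14.7 CPM, highest), Ier3 in XX 0 h replicate 3 (6.18 CPM, highest) and Atf3 in XY 72 h MEKi replicate 5 (2.35 CPM, lowest).

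The XY less XX difference changed between 24 h and 72 h for 2 members by a test of the change itself. Nab1 changed by 1.99 and Ier2 by -1.85 on the log2 scale, and 25 of 25 alternatives kept each call. Pool and time cannot be told apart in this contrast for either sex alone, but both sexes were in the same pool at each time.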

How the results depend on the processing

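No called value changed sign under any alternative. The calls made under every alternative run were Nab1, Nab2 and Ier2 for XY against XX at 72 h, Nab2, Ier2 and Jun for XY 72 h against 24 h, Ier2 for 72 h MEKi against DMSO, Nab1 and Ier2 for 72 h MEKi against FGFRi, and Nab1 and Ier2 for the added change of the sex difference. Library depth limits Nab2, Fosb, Junb, Ier3 and Atf3, whose counts were single digits in some libraries.
Same-numbered libraries of the groups compared had deviations correlated from -0.392 to 0.357. With only 2 to 4 shared numbers a comparison, this cannot decide whether replicate numbers pair the libraries. For 24 h MEKi against FGFRi the correlations of same-numbered libraries were 0.116 to 0.294. With the replicate number as a block, the count of members called was 1 for XY 24 h DMSO against 0 h (2 without), 0 for XX 72 h against 24 h (2), 0 for 24 h MEKi (1), 1 for 72 h MEKi (2), 2 for 72 h MEKi against FGFRi (4) and 0 for 72 h MEKi against XX (2). The calls not made with the block were Nab2 for XY 24 h DMSO against 0 h (treat adjusted p = 0.106), 24 h MEKi (0.285), 72 h MEKi (0.0924) and 72 h MEKi against FGFRi (0.0581), Junb for XY against XX at 72 h (0.339), Fosb and Jun for XX 72 h against 24 h (0.181 and 0.0945), Fosb for 72 h MEKi against FGFRi (0.461), and Nab1 and Ier3 for 72 h MEKi against XX (0.0822 and 0.462).
Counting any change with an observed fold over 1.5 gave 1 member for XY against XX at 0 h, 4 at 24 h and 8 at 72 h, 4 for XY 24 h DMSO against 0 h, 2 for XX 24 h against 0 h, 5 each for XY and XX 72 h against 24 h, 5 for 24 h MEKi, 2 for 24 h MEKi against XY 0 h, 3 for MEKi against FGFRi at 24 h, 6 for 72 h MEKi, 3 for the change of the MEKi effect and 1 for that of the FGFRi effect, a looser rule by construction. edgeR called 3 for XY against XX at 24 h and 1 for MEKi against FGFRi at 24 h. DESeq2 called 1 for XX 72 h against 24 h, 0 for 24 h MEKi against XY 0 h, 1 for MEKi against FGFRi at 24 h and 1 for 72 h MEKi against XX. Fitting only the groups compared gave 1 for XY against XX at 0 h, 2 for 24 h MEKi and 1 for 72 h MEKi against XX. With no filter, 0 were called for XY 24 h DMSO against 0 h, 1 for MEKi against FGFRi at 24 h and 1 for 72 h MEKi against XX. With index carry-over subtracted, 1 was called for XY against XX at 24 h. Leaving out 1 library gave 0 to 2 calls for XY 24 h DMSO against 0 h, 0 to 1 for XY against XX at 24 h, 1 to 3 for XX 72 h against 24 h, 3 to 5 for XY against XX at 72 h and for 72 h MEKi against FGFRi, 0 to 1 for 24 h MEKi against DMSO and against XY 0 h, and 1 to 2 for 72 h MEKi against XX. The causes were not tested. RLE scaling moved the median of all genes by at most 0.116 on the log2 scale, in XY 72 h against 24 h.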
